A study of Mus musculus with 8 samples.

Results

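Mitosis and G2/M cell cycle genes were followed in mouse embryonic stem (ES) cells whose Sall4, a zinc-finger transcription factor made as a long (Sall4a) and a short (Sall4b) isoform, was lowered by an shRNA, alone or in cells carrying an added single isoform. The set holds 44 genes picked by name for their function in the G2 phase and in cell division, of which 43 were measured out of 14027 genes in all. Ccnb1, which encodes cyclin B1, was not analysed here. A gene was read by its brightest probe set among those called present on 2 or more of the 8 arrays, and all 43 of these probe sets were called present on 8 of 8 arrays.

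All cells were of the line CJ7 and took up lentivirus over 24 hours in the presence of 2.5 mcg/mL polybrene. Puromycin (2 mcg/mL) then selected infected cells in medium with leukaemia inhibitory factor (LIF), and RNA dates from 48 hours after infection. Each of the 4 groups had 2 arrays. Control cells (WT) received a lentivirus without a short hairpin RNA (shRNA). Depleted cells (-Sall4a -Sall4b) received an shRNA against both isoforms. Sall4a-only cells (+Sall4a -Sall4b) and Sall4b-only cells (-Sall4a +Sall4b) received the same shRNA and carried the named isoform in a version immune to it. The shRNA and the lowering of the cells' own Sall4 came together in every group but the control, so in comparisons with control they cannot be told apart. Add-back groups also differ from control by the added isoform. Arrays of a group are labelled biological replicates, with nothing said of separate cultures, so a p-value here measures only array-to-array spread, which may be technical in part.

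Entry into mitosis is driven by the kinase Cdk1 bound to cyclin A or cyclin B, after phosphatases of the Cdc25 family remove its inhibitory phosphates. Polo-like and Aurora kinases then build the spindle, kinetochores tie chromosomes to it, and a checkpoint of Mad and Bub proteins holds back the anaphase-promoting complex until every chromosome is attached. Transcripts of these genes build up together late in the cell cycle, under the control of B-Myb, FoxM1 and the DREAM complex. Mouse ES cells divide fast, with a short G1 phase and a large share of cells in S and G2. RNA was taken from whole cultures, in which fewer cells in G2 or mitosis and less RNA per cell cannot be told apart.

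Promoter windows are shown because genes of this class are known to share the cell cycle homology region, a TTTGAA or TTTAAA element read by the DREAM and B-Myb complexes, and CCAAT boxes read by NF-Y. RefSeq windows of 300 bases (250 before to 50 after the start of the gene, build GRCm38.p6, 1 window a gene) matched 37 of the 44 genes by symbol, 36 of them measured. Both strands were searched for TTTGAA, for TTTAAA and for the CCAAT box, and overlapping matches were each counted. TTTGAA stood in 25 of the 36 windows (69.4%), against 11.9% of the 11286 windows of genes on the arrays and 18.1% of all 27025. TTTAAA stood in 9 of the 36 (25%, against 9.31% and 13.2%) and CCAAT in 26 (72.2%, against 38.7% and 37.9%). At least 2 CCAAT boxes together with TTTGAA or TTTAAA stood in 15 of the 36 (41.7%), against 2.76% of genes on the arrays. A match describes the letters of the window and is not evidence of binding.

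Printed 5′ to 3′ on the strand of the gene, with matches to the 3 motifs or their complements in capitals, are the window of the member with the smallest p in Sall4b-only against control cells, which holds no match, and those of the next 5 by p that hold both kinds of motif. They lie, in order, with Nusap1 at chr2:119618048-119618347 on the forward strand, Kif4 at chrX:100625815-100626114 on the forward strand, Mki67 at chr7:135716330-135716629 on the reverse strand, Cdc20 at chr4:118437294-118437593 on the reverse strand, Ttk at chr9:83834439-83834738 on the forward strand and Ccnb2 at chr9:70421505-70421804 on the reverse strand.
Nusap1: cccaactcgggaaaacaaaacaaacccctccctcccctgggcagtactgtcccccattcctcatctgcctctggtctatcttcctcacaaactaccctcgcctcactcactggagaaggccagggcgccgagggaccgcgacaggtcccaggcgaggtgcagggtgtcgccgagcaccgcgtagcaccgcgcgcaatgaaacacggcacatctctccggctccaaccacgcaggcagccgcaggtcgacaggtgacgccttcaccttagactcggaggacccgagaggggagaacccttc
Kif4: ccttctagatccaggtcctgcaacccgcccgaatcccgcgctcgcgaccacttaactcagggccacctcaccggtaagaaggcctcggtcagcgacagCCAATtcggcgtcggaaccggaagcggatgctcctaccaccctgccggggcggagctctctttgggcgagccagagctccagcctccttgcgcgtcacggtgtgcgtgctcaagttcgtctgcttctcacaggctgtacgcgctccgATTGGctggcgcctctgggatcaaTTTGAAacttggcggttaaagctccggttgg
Mki67: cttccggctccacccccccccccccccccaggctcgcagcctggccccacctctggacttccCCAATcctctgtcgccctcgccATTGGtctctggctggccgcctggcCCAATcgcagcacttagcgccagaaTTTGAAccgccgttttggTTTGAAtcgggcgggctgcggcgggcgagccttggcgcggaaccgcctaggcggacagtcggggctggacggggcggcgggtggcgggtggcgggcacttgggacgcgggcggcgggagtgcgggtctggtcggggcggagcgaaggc
Cdc20: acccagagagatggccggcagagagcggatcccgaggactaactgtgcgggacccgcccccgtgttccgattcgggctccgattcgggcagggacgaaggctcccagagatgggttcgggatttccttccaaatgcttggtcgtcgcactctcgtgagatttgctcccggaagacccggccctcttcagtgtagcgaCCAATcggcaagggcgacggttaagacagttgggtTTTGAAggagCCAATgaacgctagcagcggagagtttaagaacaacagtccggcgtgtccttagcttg
Ttk: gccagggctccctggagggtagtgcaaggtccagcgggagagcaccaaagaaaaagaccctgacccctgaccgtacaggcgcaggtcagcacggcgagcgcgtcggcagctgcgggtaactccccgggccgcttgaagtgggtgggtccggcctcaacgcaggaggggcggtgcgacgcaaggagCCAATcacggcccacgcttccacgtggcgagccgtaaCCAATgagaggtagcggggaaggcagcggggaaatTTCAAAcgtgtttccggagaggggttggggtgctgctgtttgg
Ccnb2: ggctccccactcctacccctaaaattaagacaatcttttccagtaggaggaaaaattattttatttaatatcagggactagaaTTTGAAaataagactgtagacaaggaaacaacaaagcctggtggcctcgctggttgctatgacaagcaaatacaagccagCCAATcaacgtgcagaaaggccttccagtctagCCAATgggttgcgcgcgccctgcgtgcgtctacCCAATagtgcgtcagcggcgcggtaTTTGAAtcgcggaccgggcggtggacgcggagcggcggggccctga

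Array values were also set out by the element, as a description with no test. In Sall4b-only against control cells the median log2 difference was 0.54 over the 28 members whose window holds TTTGAA or TTTAAA and 0.41 over the 8 whose window holds neither. In depleted against control cells these medians were 0.20 and 0.23. Nusap1, with no match to any of the 3 motifs, had the smallest p of all members in each comparison with control. Those comparisons share the control arrays, so they are not independent.

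Sall4 itself was read by its brighter probe set at 15076 and 13778 on the control arrays, 10489 and 10332 on the depleted, 9140.4 and 9043 on the Sall4a-only and 9567 and 9923 on the Sall4b-only arrays, lower on all 6 shRNA arrays than on both control arrays. The 4 add-back arrays lay below both depleted arrays, so this probe set shows no return of Sall4. A dimmer probe set was at 362 and 334 on the control arrays, 137 and 156 on the depleted, 152 and 158 on the Sall4a-only and 211 and 144 on the Sall4b-only arrays. Whether either probe set reads the added isoforms was not examined here, so they do not check the labels of the add-back groups. Its log2 difference from control was -0.47 (SE 0.10, limma adjusted p = 0.416) in depleted cells. All 12 ES cell markers were called present on 8 of 8 arrays. Of 22 fibroblast and feeder markers, 21 had a probe set (Fbn1 was not analysed here). The brightest probe set of each was present on every array for 15, on some arrays for 4 and on none for 2, Lum and Pdgfrb, while a dimmer probe set of Pdgfrb was present on at least 2 arrays and was used. Array medians of intensity ran from 141 to 149.8, and over all genes each array's median log2 deviation stayed between -0.030 and 0.037. The Sall4a-only arrays correlated at 0.968 over all genes, where the arrays of the other groups correlated at 0.9857 to 0.9938, so a Sall4a-only mean is taken over unlike arrays.

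The members varied together from array to array. For each array the median was taken over the 43 members of log2 intensity minus the gene's own mean over 8 arrays. This level was -0.052 and -0.43 on the control arrays, 0.043 and -0.0028 on the depleted, 0.19 and -0.22 on the Sall4a-only and 0.32 and 0.14 on the Sall4b-only arrays. Control replicate 2 was the lowest array and Sall4a-only replicate 2 the next lowest, Sall4b-only replicate 1 was the highest, and the depleted arrays lay in the middle and close to each other. Of the 43 members, 30 had their lowest value on control replicate 2 and 11 on Sall4a-only replicate 2, arrays that held the lowest value of 21.7% and 14.4% of all genes. The highest value of 38 members was on Sall4b-only replicate 1, which held it for 18.7% of all genes.

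**Figure D1:**
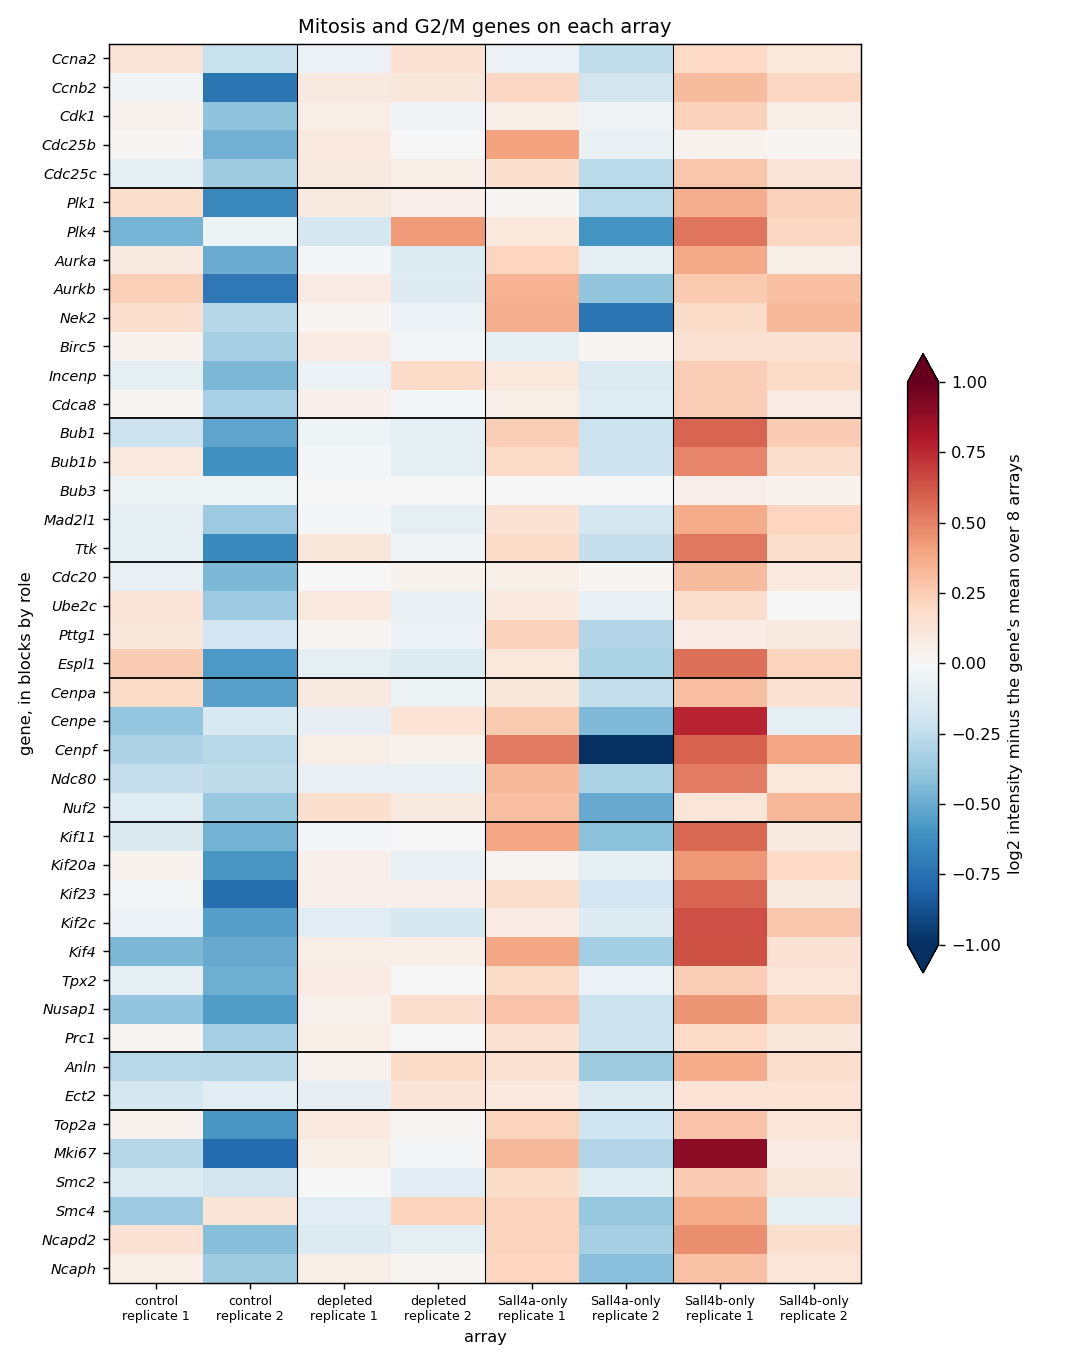
Heat map of log2 intensity minus each gene's mean over 8 arrays for the 43 measured members (rows, in blocks by role) on the 8 arrays (columns), red above and blue below the mean, with the scale in log2 units. The column of control replicate 2 is blue for most members and that of Sall4b-only replicate 1 is red for most, while both depleted columns stay near the mean.

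Replicates of the same group differed mostly in one direction across the set, least so in depleted cells. On control replicate 1, 37 of 43 members (86%) were higher than on control replicate 2, by a median of 0.37 log2, against 50.7% of all genes. In Sall4a-only cells 42 of 43 were higher on replicate 1, by a median of 0.42, against 51.5% of all genes. The same held for 39 of 43 in Sall4b-only cells (median 0.18), against 51.2%. Depleted cells lay nearest the share of all genes, with 28 of 43 (65.1%, median 0.045) against 52%. The median gap between the control arrays exceeded the size of the members' median difference in each comparison below except Sall4b-only against control.

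Range over the 8 arrays, on the probe set used for each gene, separated steady from variable members. Bub3, a checkpoint protein that also has roles outside mitosis, spanned only 0.11 log2, at 6351 and 6386 on the control arrays, 6617 and 6583 on the depleted, 6594 and 6571 on the Sall4a-only and 6839 and 6755 on the Sall4b-only arrays. Its dimmer probe sets were less steady. The next brightest was at 3228 and 2661 on the control arrays and at 0.046 log2 in Sall4b-only against control cells. The others were at -0.34, -0.21 and -0.50 there. Cenpf, a large kinetochore protein that builds up in G2, and Mki67, the Ki-67 coat protein of mitotic chromosomes, lay at the other end, with 1.59 and 1.67 log2. The median range over members was 0.87 log2.

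Among the cyclins and the regulators of Cdk1, cyclin B2 (Ccnb2) was the most variable. Its intensity was 3282 and 2019.9 on the control arrays, 3558 and 3615 on the depleted, 3861 and 2949 on the Sall4a-only and 4171 and 3870 on the Sall4b-only arrays. Control replicate 2 stood far below the other 7 arrays, and both depleted and both Sall4b-only arrays lay above both control arrays. Log2 differences of Ccnb2 from control were 0.48 (depleted), 0.39 (Sall4a-only) and 0.64 log2 (Sall4b-only), with an SE of 0.25 (limma adjusted p = 0.731, 0.709 and 0.315), and none passed. Cdk1, the kinase that drives mitotic entry, was at 8434 and 6254 on the control arrays, 8627 and 8087 on the depleted, 8659.8 and 8057 on the Sall4a-only and 9694 and 8618 on the Sall4b-only arrays. Its Sall4b-only arrays were the only pair that lay above both control arrays. Cyclin A2 (Ccna2), a partner of Cdk kinases in S and G2, was at 5473 and 4280.2 on the control arrays, 4801 and 5528 on the depleted, 4791 and 4208 on the Sall4a-only and 5740.1 and 5376 on the Sall4b-only arrays, with Sall4a-only cells below control replicate 1 on both arrays. Cdc25c, a phosphatase that activates Cdk1, differed from control by 0.30 (depleted), 0.17 (Sall4a-only) and 0.43 log2 (Sall4b-only), with an SE of 0.18 (limma adjusted p = 0.784, 0.837 and 0.336).

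Among mitotic kinases, Plk1 and Aurkb differed widely between the control arrays. Plk1, the polo-like kinase needed for spindle poles and mitotic exit, was at 2347 and 1329.5 on the control arrays, 2213 and 2151 on the depleted, 2098 and 1725 on the Sall4a-only and 2679.6 and 2446 on the Sall4b-only arrays. Aurkb, the kinase of the chromosomal passenger complex, was at 2233 and 1152 on the control arrays, 2008 and 1737 on the depleted, 2416 and 1441 on the Sall4a-only and 2278 and 2339 on the Sall4b-only arrays. For both, control replicate 1 lay near the Sall4b-only arrays and control replicate 2 below every other array. Plk4, which starts centriole duplication, ran the other way, at 1661 and 2212 on the control arrays, 2037 and 3077 on the depleted, 2468 and 1509 on the Sall4a-only and 3322 and 2641 on the Sall4b-only arrays, with control replicate 2 above control replicate 1. Incenp, the scaffold of the passenger complex, was at 6064 and 4736 on the control arrays, 6226 and 7399.9 on the depleted, 6959.6 and 5906 on the Sall4a-only and 7698 and 7415 on the Sall4b-only arrays. On this probe set all arrays of depleted and Sall4b-only cells exceeded both control arrays. The log2 differences of Incenp from control were 0.34 (depleted), 0.26 (Sall4a-only) and 0.50 log2 (Sall4b-only), with an SE of 0.17 (limma adjusted p = 0.716, 0.725 and 0.282). On a dimmer Incenp probe set control replicate 1 (392) exceeded the depleted (363 and 326) and Sall4b-only arrays (382 and 345). Cdca8 (borealin), another passenger subunit, differed by 0.17 (depleted), 0.12 (Sall4a-only) and 0.32 log2 (Sall4b-only), with an SE of 0.15 (limma adjusted p = 0.894, 0.880 and 0.399). Nek2, a centrosome kinase, had its lowest value, 627, on Sall4a-only replicate 2 and its highest, 1338, on Sall4a-only replicate 1. Birc5 (survivin) was the single member that was not higher on Sall4a-only replicate 1 than on replicate 2, with 10651 and 11519.

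Among spindle checkpoint genes, Bub1 and Mad2l1 were highest on both Sall4b-only arrays. Bub1, the kinase that recruits checkpoint proteins to kinetochores, was at 2921 and 2361 on the control arrays, 3292 and 3193 on the depleted, 4036 and 2931 on the Sall4a-only and 5091 and 4044 on the Sall4b-only arrays. Both arrays of each shRNA group lay above both control arrays, with Sall4a-only replicate 2 just above control replicate 1. Its differences from control were 0.30 (depleted), 0.39 (Sall4a-only) and 0.79 log2 (Sall4b-only), with an SE of 0.21 (limma adjusted p = 0.818, 0.654 and 0.205). Mad2l1 (Mad2), the inhibitor of Cdc20, was at 3967 and 3281 on the control arrays, 4187 and 3969 on the depleted, 4679 and 3733 on the Sall4a-only and 5458 and 4905 on the Sall4b-only arrays, and its Sall4a-only replicate 2 lay between the control arrays. Mad2l1 differed from control by 0.18 (depleted), 0.21 (Sall4a-only) and 0.52 log2 (Sall4b-only), with an SE of 0.16 (limma adjusted p = 0.893, 0.767 and 0.247). Ttk (Mps1), the kinase at the head of the checkpoint, was at 2603 and 1786 on the control arrays, 3009.9 and 2740 on the depleted, 3168 and 2372 on the Sall4a-only and 4015 and 3139 on the Sall4b-only arrays, with depleted and Sall4b-only arrays above both control arrays. On a dimmer Ttk probe set the Sall4b-only arrays, at 857 and 975, overlapped the control arrays, at 940 and 684. Both Sall4b-only arrays lay below the depleted arrays there, at 1121 and 1038.

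Of the genes for anaphase and mitotic exit, Cdc20, the activator of the anaphase-promoting complex, was at 6823 and 5273 on the control arrays, 7199 and 7355 on the depleted, 7484 and 7273 on the Sall4a-only and 8958 and 7700.3 on the Sall4b-only arrays. On the probe set used, all 6 shRNA arrays lay above both control arrays. On another Cdc20 probe set, depleted replicate 1 (6830) and Sall4a-only replicate 2 (6693) lay below control replicate 1 (6895). Log2 differences of Cdc20 were 0.28 (depleted), 0.30 (Sall4a-only) and 0.47 log2 (Sall4b-only), with an SE of 0.16 (limma adjusted p = 0.761, 0.647 and 0.270). Espl1, the separase that cuts cohesin, was at 1697 and 959.8 on the control arrays, 1330.4 and 1299.9 on the depleted, 1531 and 1144 on the Sall4a-only and 2091 and 1664 on the Sall4b-only arrays; depleted and Sall4a-only arrays lay between the control arrays. It differed from control by 0.043 (depleted), 0.052 (Sall4a-only) and 0.55 log2 (Sall4b-only), with an SE of 0.29 (limma adjusted p = 0.989, 0.978 and 0.435). Ube2c, the ubiquitin-conjugating enzyme of the complex, and Pttg1 (securin), which holds separase inactive, had no group that lay clear of both control arrays.

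Centromere and kinetochore genes did not all share the gap between control arrays. Cenpf was at 1550.3 and 1590 on the control arrays, 2001 and 1966 on the depleted, 2753 and 964 on the Sall4a-only and 2896 and 2509 on the Sall4b-only arrays. On the probe set used, its control arrays nearly coincided. Sall4a-only replicate 2 lay below every other array, while replicate 1 was among the highest. Other Cenpf probe sets, present on 8 of 8 arrays, had control arrays apart, at 1538 and 1017 and at 205 and 138. These were at 0.0011 and 0.90 log2 in Sall4b-only against control cells, where the probe set used was at 0.78. Ndc80, which binds microtubules at the kinetochore, was at 1335 and 1314 on the control arrays, 1490.1 and 1490.2 on the depleted, 1964 and 1258 on the Sall4a-only and 2231 and 1689 on the Sall4b-only arrays, and differed from control by 0.17 (depleted), 0.25 (Sall4a-only) and 0.55 log2 (Sall4b-only), with an SE of 0.24 (limma adjusted p = 0.941, 0.821 and 0.344). Nuf2, its partner in the same complex, differed by 0.37 (depleted), 0.15 (Sall4a-only) and 0.48 log2 (Sall4b-only), with an SE of 0.27 (limma adjusted p = 0.834, 0.921 and 0.450). Cenpe, a kinetochore motor, was highest on Sall4b-only replicate 1 at 2796, against 1537 on replicate 2. Cenpa, the histone variant of centromeres, was at 4529 and 2742 on the control arrays, a gap of 0.72 log2.

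Spindle motors and microtubule-binding proteins held the largest share of members with small p values. In Sall4b-only against control cells 6 of 8 were higher at an unadjusted p under 0.05 by limma, against 9.46% of all genes. Nusap1, which bundles spindle microtubules, was at 2652 and 2365 on the control arrays, 3576 and 3893 on the depleted, 4232 and 2998 on the Sall4a-only and 4736 and 4098 on the Sall4b-only arrays. Every shRNA array lay above both control arrays, and the control arrays were close together. Its dimmer second probe set, present on 2 arrays, was at -0.18 log2 in Sall4b-only against control cells. For the brighter, the log2 differences were 0.58 (depleted), 0.51 (Sall4a-only) and 0.81 log2 (Sall4b-only), with an SE of 0.19 (limma adjusted p = 0.561, 0.539 and 0.186). Kif2c (MCAK), a kinesin that depolymerises microtubules at centromeres, was at 1954 and 1389.7 on the control arrays, 1898 and 1827 on the depleted, 2162 and 1866 on the Sall4a-only and 3182 and 2454 on the Sall4b-only arrays. On this probe set depleted arrays lay between the control arrays and Sall4b-only arrays above all others. Kif2c differed from control by 0.18 (depleted), 0.29 (Sall4a-only) and 0.76 log2 (Sall4b-only), with an SE of 0.21 (limma adjusted p = 0.925, 0.756 and 0.213). Dimmer Kif2c probe sets were at 0.58, 0.21 and 0.015 log2 in Sall4b-only against control cells. On those at 0.21 and 0.015 the Sall4b-only arrays overlapped the control arrays. Kif4, a chromokinesin, was at 676 and 652 on the control arrays, 965 and 966 on the depleted, 1205 and 731 on the Sall4a-only and 1433 and 1021 on the Sall4b-only arrays, with nearly equal control arrays and all 6 shRNA arrays above them. Its differences were 0.54 (depleted), 0.50 (Sall4a-only) and 0.87 log2 (Sall4b-only), with an SE of 0.27 (limma adjusted p = 0.704, 0.654 and 0.242). Tpx2, which activates Aurora A on the spindle, was at 5443 and 4125 on the control arrays, 6114 and 5817 on the depleted, 6592 and 5572 on the Sall4a-only and 6852 and 6302 on the Sall4b-only arrays. On this probe set all 6 shRNA arrays lay above both control arrays. On a dimmer Tpx2 probe set Sall4a-only replicate 2 (3639) lay below control replicate 1 (3934). The midzone genes Kif23 and Kif20a, kinesins of the central spindle, and Kif11, the motor that separates the poles, had Sall4b-only arrays above both control arrays as well. On a dimmer Kif11 probe set Sall4b-only replicate 2 (636) lay below control replicate 1 (1041).

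For cytokinesis, Anln (anillin), which links actin and septins at the cleavage furrow, was at 2005 and 1995 on the control arrays, 2499 and 2753 on the depleted, 2689.8 and 1897 on the Sall4a-only and 3137 and 2724 on the Sall4b-only arrays. On the probe set used, its control arrays nearly coincided, and Sall4a-only replicate 2 was below them while the other shRNA arrays lay above. A dimmer Anln probe set had control arrays at 461 and 349, with Sall4a-only replicate 2 just above both, at 464. Anln differed from control by 0.39 (depleted), 0.18 (Sall4a-only) and 0.55 log2 (Sall4b-only), with an SE of 0.19 (limma adjusted p = 0.699, 0.843 and 0.276). Ect2, the exchange factor that activates RhoA at the furrow, differed by 0.17 (depleted), 0.12 (Sall4a-only) and 0.28 log2 (Sall4b-only), with an SE of 0.13 (limma adjusted p = 0.865, 0.847 and 0.388).

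Chromosome structure genes included the largest difference of the set. Mki67 was at 2149 and 1535 on the control arrays, 2719 and 2596 on the depleted, 3282 and 2135 on the Sall4a-only and 4872 and 2766 on the Sall4b-only arrays. Sall4b-only replicate 1 stood far above replicate 2, which was close to the depleted arrays. Mki67 differed from control by 0.55 (depleted), 0.54 (Sall4a-only) and 1.01 log2 (Sall4b-only), with an SE of 0.34 (limma adjusted p = 0.792, 0.700 and 0.268), a 2.02-fold difference in Sall4b-only cells. The Sall4b-only difference was 0.61 log2 without Sall4b-only replicate 1 and 1.42 without replicate 2. Top2a, the topoisomerase that untangles chromosomes, was at 7898 and 5156 on the control arrays, 8272 and 7792 on the depleted, 8987 and 6732 on the Sall4a-only and 9414 and 8403 on the Sall4b-only arrays. Smc4, a condensin subunit, ran against the set on the control arrays, at 4090.1 and 5747 on the control arrays, 4897 and 6138 on the depleted, 6138 and 4048 on the Sall4a-only and 6816 and 4915 on the Sall4b-only arrays, with control replicate 2 above replicate 1. Smc2, its condensin partner, differed by 0.11 (depleted), 0.19 (Sall4a-only) and 0.35 log2 (Sall4b-only), with an SE of 0.14 (limma adjusted p = 0.934, 0.758 and 0.326). Ncapd2 and Ncaph, other condensin subunits, had control arrays 0.57 and 0.42 log2 apart, replicate 1 higher.

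**Figure D2:**
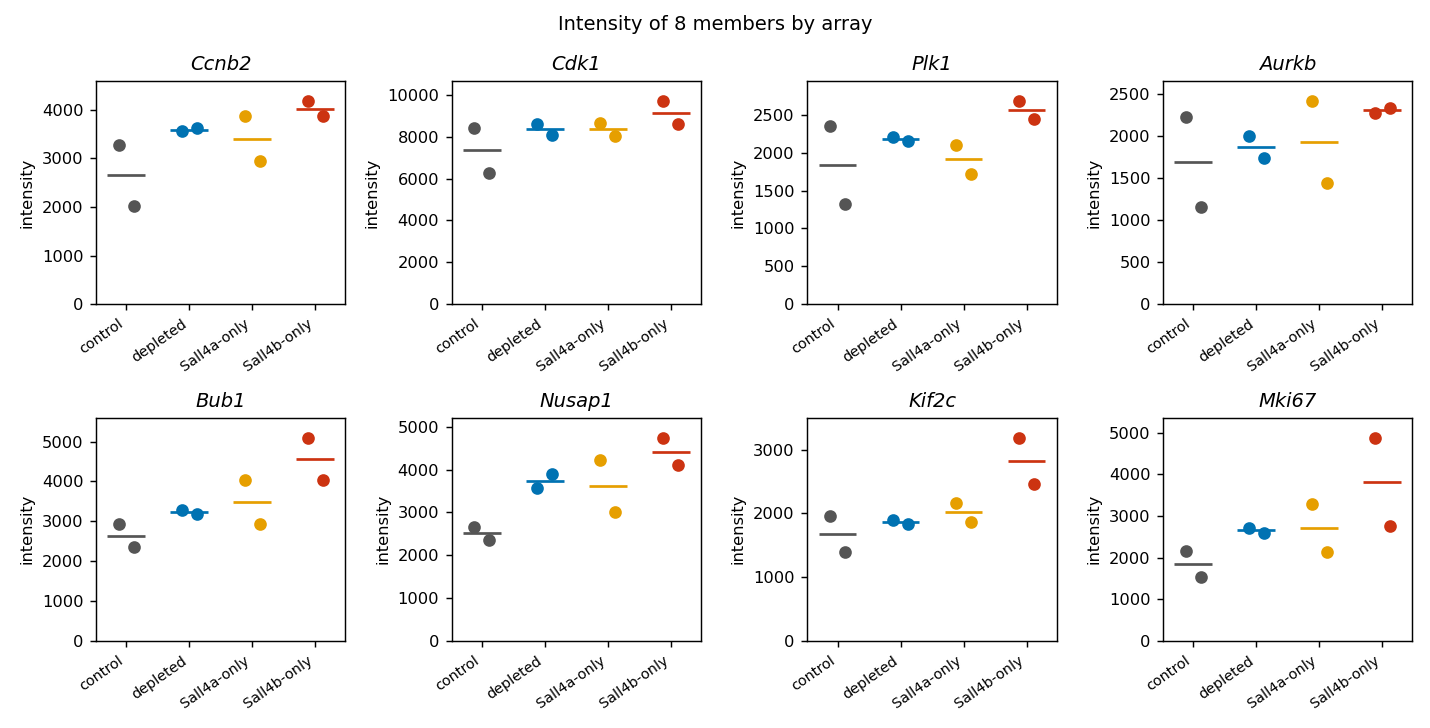
Intensity (linear scale from 0) of 8 members by group, with a point for each of the 2 arrays (replicate 1 left, replicate 2 right) and a bar at their mean. Sall4b-only points lie above both control points in each of the 8 panels, narrowly for Cdk1 and Aurkb, and the control points are far apart for Plk1 and Aurkb but close for Nusap1.

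Depleted cells were compared with control cells to see where mitotic genes stood once both isoforms were lowered. All 43 members had a higher mean in depleted cells, where 50.8% of all genes did, with a median log2 difference of 0.22 against 0.0038 over all genes. Both depleted arrays lay above both control arrays for 21 of 43 members, against 21.5% of all genes, and below them for none, against 19.6%. The 5 members with the smallest p were Nusap1, 1.49-fold higher, Anln, 1.31-fold, Kif4, 1.46-fold, Incenp, 1.27-fold, and Tpx2, 1.26-fold. By limma over 14027 genes 0 members passed, as did 0% of all genes, and 1 member (Nusap1) had an unadjusted p under 0.05, against 4.11% of all genes in the same direction; 0 members and 3.81% of all genes were lower at that p. The smallest adjusted p of a member was 0.561.

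The size of this difference rested on the control arrays. Without control replicate 2 the members' median was 0.055 log2, and the depleted arrays lay above the remaining control array for 23 members and below it for 12, where 38.6% and 39.7% of all genes did. Without control replicate 1 the median was 0.42, and the depleted arrays lay above the remaining control array for 41 members and below it for 0, where 42.3% and 38.5% of all genes did. Of the members with fitted values above, Espl1, Kif2c and Cdca8 had the opposite sign without control replicate 2. Nusap1, Kif4 and Anln, whose control arrays were close together on the probe set used, kept their direction without either control array.

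Sall4a-only cells were compared with control cells in the same way. Of 43 members 41 had a higher mean, against 56.6% of all genes, with a median log2 difference of 0.19 against 0.035 over all genes. Ccna2 and Nek2 were the exceptions. A dimmer probe set of Ccna2 was at 0.044 log2, and dimmer ones of Nek2 were at -0.16 and 0.39. The Sall4a-only arrays lay above both control arrays for 7 members (16.3%), close to the 17.8% of all genes, and these were Nusap1, Tpx2, Cdc20, Kif4, Bub1, Smc2 and Bub3. For Nusap1, Tpx2, Cdc20, Smc2 and Bub3 the Sall4a-only arrays overlapped the control arrays on another probe set. Members below both control arrays numbered 0, against 12.2% of all genes. The smallest p values belonged to Nusap1, 1.42-fold higher, Tpx2, 1.28-fold, Cdc20, 1.23-fold, Kif4, 1.41-fold, and Bub1, 1.31-fold. By limma 0 members passed, against 0.00713% of all genes, and 1 had an unadjusted p under 0.05, against 5.47%, while 0 were lower at that p, against 3.37%. Leaving out Sall4a-only replicate 1 gave a median of 0.037, control replicate 2 a median of 0.040, control replicate 1 a median of 0.42 and Sall4a-only replicate 2 a median of 0.39.

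Sall4b-only cells lay furthest above control. All 43 members had a higher mean (59.2% of all genes), with a median log2 difference of 0.48 against 0.061 over all genes. Both Sall4b-only arrays lay above both control arrays for 36 of 43 members (83.7%), against 32.2% of all genes, and below them for 0, against 19.5%. The 5 members with the smallest p were Nusap1 (1.76-fold), Bub1 (1.73-fold), Kif2c (1.7-fold), Kif4 (1.82-fold) and Mad2l1 (1.43-fold). By limma 0 members passed, against 0.00713% of all genes, and the smallest adjusted p was 0.186, for Nusap1. At an unadjusted p under 0.05 there were 15 members (34.9%) that were higher, against 9.46% of all genes, and 0 that were lower, against 5.6%. By role these were 6 of 8 spindle motors and binders, 3 of 5 checkpoint genes, 2 of 6 chromosome structure genes, 1 each of the cyclin and Cdk1, kinase, anaphase and cytokinesis groups, and 0 of 5 kinetochore genes. The kinetochore genes still had a median difference of 0.55 log2, near the 0.57 of the checkpoint genes, and 4 of 5 were higher without overlap. Each p uses a spread estimated over all 4 groups, the unlike Sall4a-only arrays included. The counts by p therefore do not rank the roles by size of difference.

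The direction of nearly all members held with either control array left out, while the size moved. The median over members was 0.28 log2 without control replicate 2, with 41 of 43 members higher, and 0.66 without control replicate 1, with 43 of 43 higher. Ube2c and Pttg1 were the members that were not higher than control replicate 1. With the Sall4a-only group dropped from the fit, 0 members passed, with a smallest adjusted p of 0.0550, while 52 higher and 69 lower genes (0.863% of all) did.

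**Figure D3:**
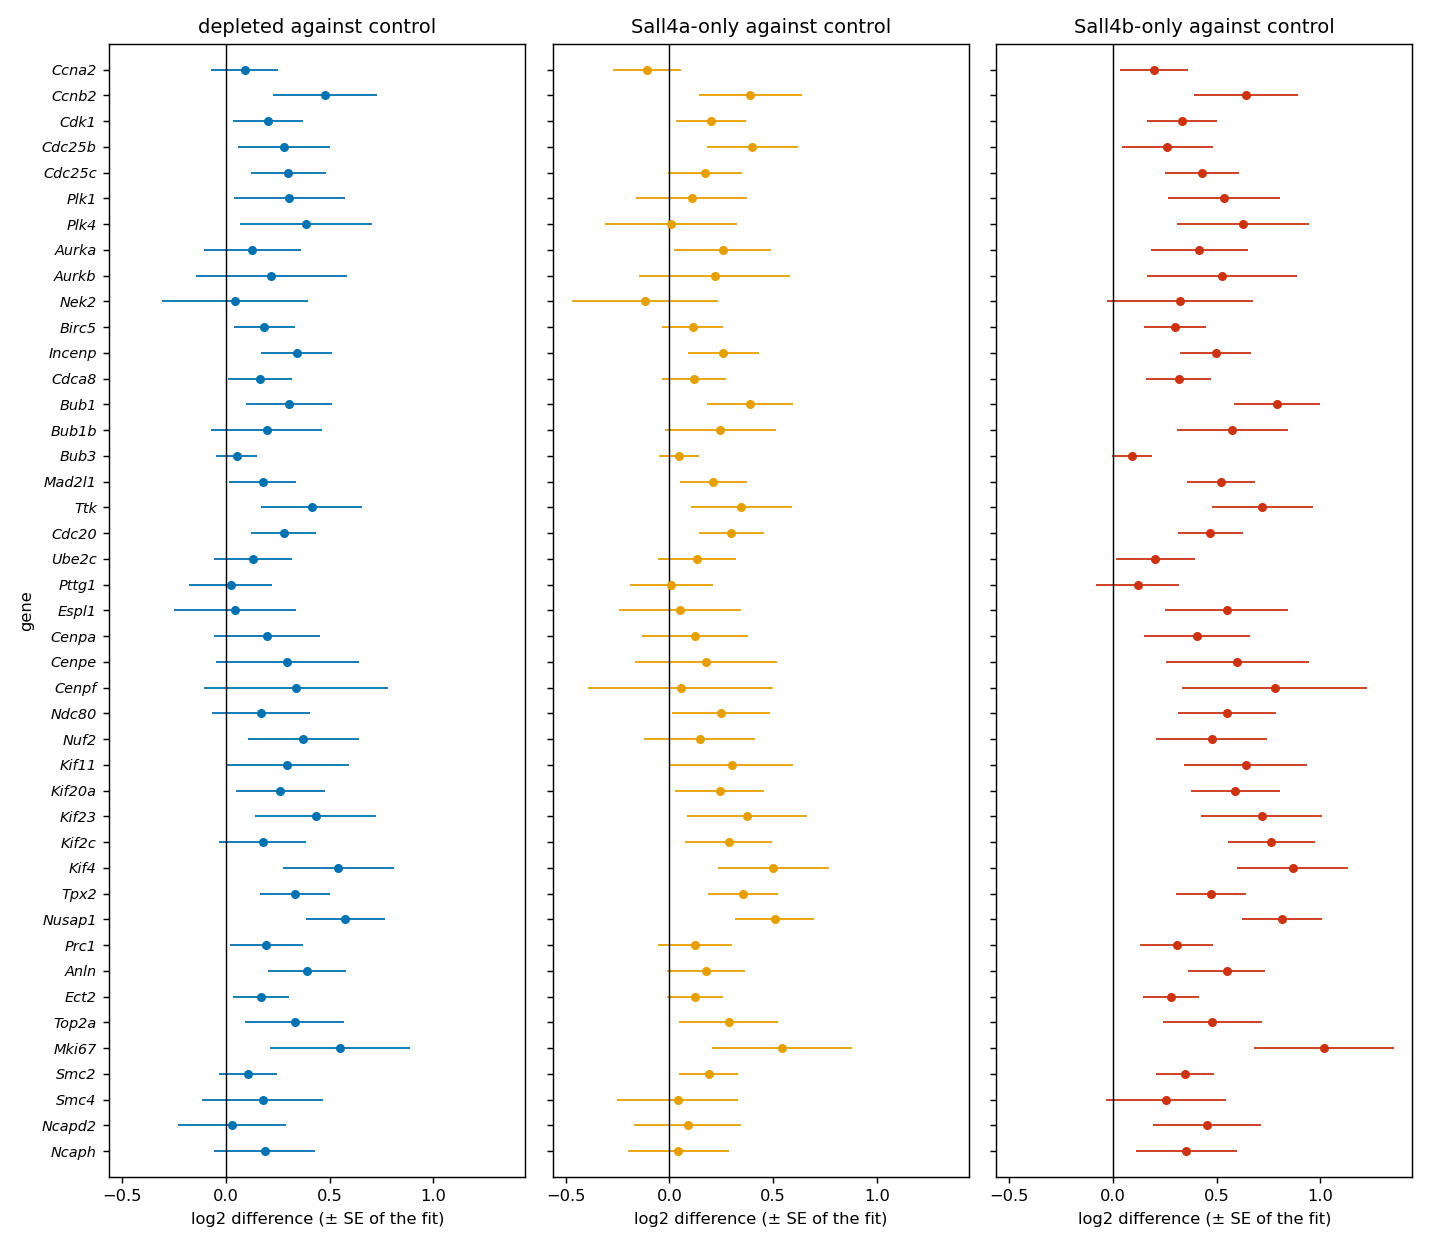
Log2 difference from control (x axis) with the standard error of the fit for each of the 43 members (y axis, by role) in depleted, Sall4a-only and Sall4b-only cells. Most points lie further right in the third panel than in the first and second. All 43 lie above 0 in the depleted and Sall4b-only panels, while 2 points of the Sall4a-only panel (Ccna2 and Nek2) lie below 0.

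**Figure D4:**
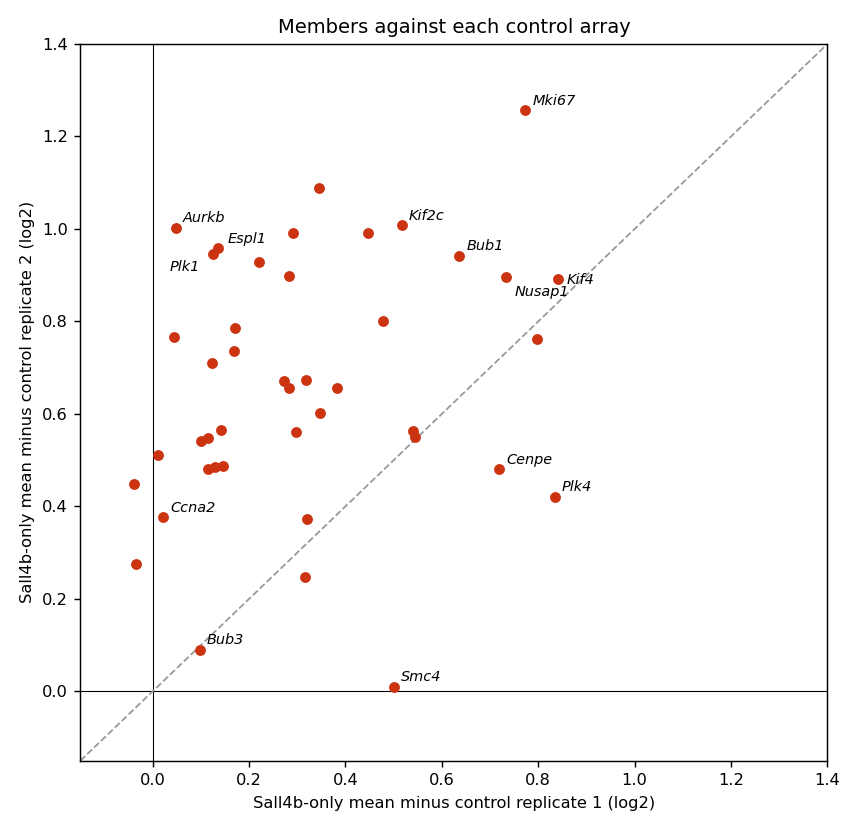
Mean of the Sall4b-only arrays minus control replicate 1 (x axis) and minus control replicate 2 (y axis), log2, a point for each of 43 members, with the dashed line at equal values. Of the points, 37 (the members lower on control replicate 2) lie above the line, 41 lie right of 0 and 43 above 0.

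Add-back groups were next set against depleted cells, which carry the same shRNA. These comparisons share the depleted arrays. In Sall4b-only cells 42 of 43 members had a higher mean than in depleted cells (61.8% of all genes), with a median of 0.23 log2 against 0.065 over all genes; Cdc25b was the exception. Both Sall4b-only arrays exceeded both depleted arrays for 34 members (79.1%), against 37.8% of all genes, and were below them for 0, against 18.9%. The 5 members with the smallest p were Kif2c (1.5-fold), Bub1 (1.4-fold), Mad2l1 (1.27-fold), Espl1 (1.42-fold) and Smc2 (1.18-fold). By limma 0 passed, as did 0% of all genes, and 1 member (Kif2c) had an unadjusted p under 0.05, against 5.1%, while 0 were lower at that p, against 3.76%. The log2 difference of Kif2c was 0.59 (SE 0.21, limma adjusted p = 0.527) on the probe set used, and 0.49, 0.11 and 0.054 on dimmer ones. Leaving out Sall4b-only replicate 1 gave a median of 0.11 log2, and leaving out replicate 2 gave 0.30.

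In Sall4a-only cells the members showed no common direction against depleted cells. A higher mean was seen for 15 and a lower for 28 of 43, with a median of -0.045 log2 against 0.032 over all genes, of which 57.6% were higher. Both Sall4a-only arrays lay below both depleted arrays for 2 members, Ccna2 and Plk1, against 12.3% of all genes, and above for 0, against 22.9%. Ccna2 did so narrowly, at 4791 against 4801 for the nearest arrays. Its dimmer probe set overlapped, at 3869 and 3006 on the Sall4a-only and 3514 and 3838 on the depleted arrays. Differences with the smallest p were those of Ccna2, -0.20 (SE 0.16, limma adjusted p = 0.881), Plk4, -0.38, Anln, -0.22, Nuf2, -0.23, and Plk1, -0.20. By limma 0 members passed, as did 0% of all genes, and 0 had an unadjusted p under 0.05 in either direction, against 4.43% higher and 3.38% lower. Sall4a-only replicate 1 alone gave a median of 0.16 and replicate 2 alone -0.25, so the sign depended on the array.

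Sall4a-only and Sall4b-only cells were compared directly to set the isoforms side by side. In Sall4a-only cells 42 of 43 members had a lower mean (Cdc25b was higher), whereas 44% of all genes were higher, and the median difference was -0.31 log2 against -0.029 over all genes. The Sall4a-only arrays lay below both Sall4b-only arrays for 17 members (39.5%), against 19.4% of all genes, and above for 0, against 14.6%. The smallest p values were those of Kif2c, -0.48 (SE 0.21, limma adjusted p = 0.867), Anln, -0.37, Plk4, -0.62, Bub1, -0.40, and Mad2l1, -0.31. Dimmer Kif2c probe sets were at -0.43, -0.11 and -0.049. By limma 0 members passed, as did 0% of all genes, and 0 had an unadjusted p under 0.05, against 3.07% higher and 2.77% lower. Leaving out Sall4a-only replicate 2 gave a median of -0.058 and leaving out replicate 1 gave -0.52, so its size moved with the Sall4a-only array kept.

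Other cell cycle genes were examined as lists chosen by function. Of 71 other mitotic genes, 66 lay above control in depleted cells, 63 in Sall4a-only cells and 69 in Sall4b-only cells, with medians of 0.19, 0.19 and 0.40 log2. Of 55 genes of the G1/S transition and DNA replication, such as those of the Mcm helicase, 45, 48 and 54 were higher, with medians of 0.10, 0.13 and 0.34. Arrays of Sall4b-only and control cells did not overlap, on the higher side, for 56 of the 71 mitotic and 39 of the 55 replication genes, against 32.2% of all genes. By limma 0 genes of these lists passed in any of the 6 comparisons, and in Sall4b-only against control cells 15 of 71 and 16 of 55 were higher at an unadjusted p under 0.05, against 9.46% of all genes, and 0 were lower, against 5.6%.

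Lists of regulators stayed nearer 0 in Sall4b-only against control cells. The 23 genes of E2F, B-Myb, FoxM1 and the DREAM complex, which control mitotic transcription, had a median of 0.091 log2 (15 higher). For 16 subunits and regulators of the anaphase-promoting complex the median was 0.12 (13 higher), for 20 genes of the G2 checkpoint 0.12 (12 higher), and for 12 G1 cyclins and inhibitors of cyclin-dependent kinases 0.0087 (6 higher). By limma 0 genes of these 4 lists passed in the 6 comparisons, and 7 higher and 4 lower had an unadjusted p under 0.05 in Sall4b-only against control cells, where 9.46% and 5.6% of all genes did.

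Markers of ES cells followed the arrays of the mitotic genes, while those of fibroblasts and feeders did not. The 12 ES cell markers had per-array levels of 0.023 and -0.26 on the control arrays, -0.017 and -0.028 on the depleted, 0.18 and -0.20 on the Sall4a-only and 0.24 and 0.16 on the Sall4b-only arrays, the same low and high arrays as the mitotic genes. The 19 measured fibroblast and feeder markers had levels of 0.11 and 0.072 on the control arrays, 0.48 and 0.31 on the depleted, -1.30 and 0.57 on the Sall4a-only and -0.38 and 0.053 on the Sall4b-only arrays. Their summed intensity was 106214 and 98779 on the control arrays, 135123 and 128476 on the depleted, 62377 and 120475 on the Sall4a-only and 88530.1 and 101689 on the Sall4b-only arrays. Sall4a-only replicate 1, high in the mitotic set, was the array lowest in these markers, whereas control replicate 2, lowest in the mitotic set, lay near control replicate 1 in them. Their part in the mitotic differences was not tested.

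**Figure D5:**
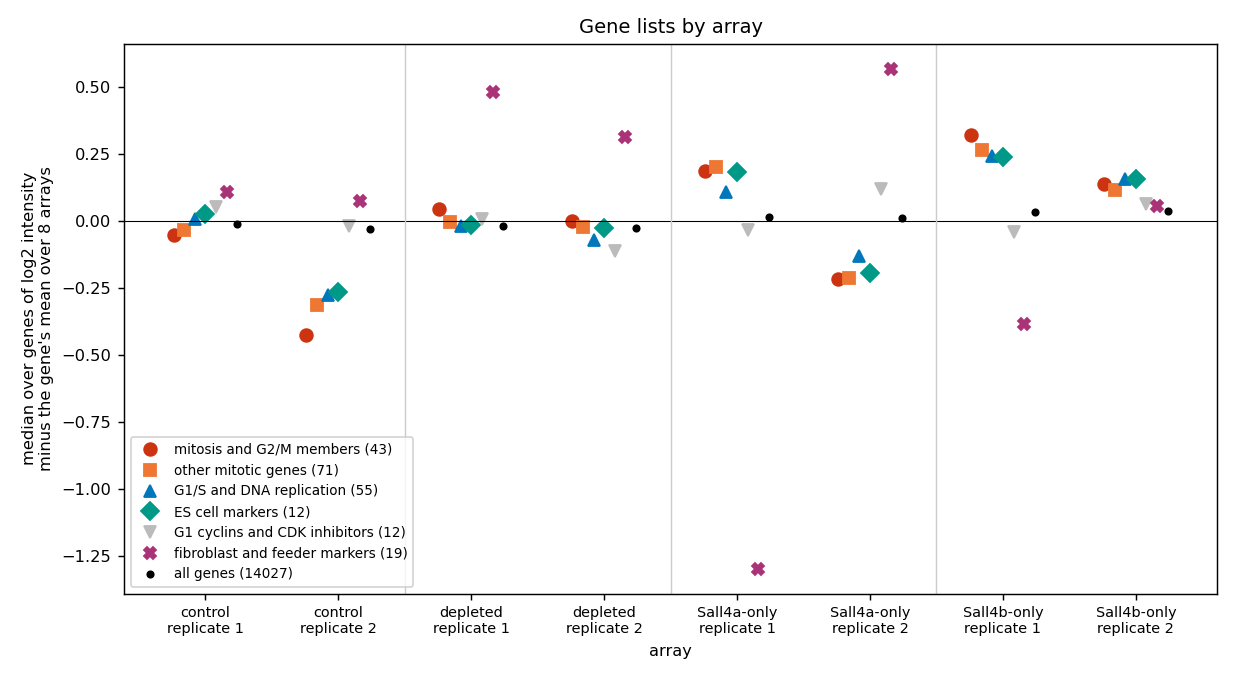
Median over the genes of a list of log2 intensity minus each gene's mean over 8 arrays (y axis), by array (x axis), for the mitosis and G2/M members and 6 other lists, with the number of genes in parentheses. Members, other mitotic genes, replication genes and ES cell markers lie low together on control replicate 2 and Sall4a-only replicate 2 and high together on Sall4b-only replicate 1, while all genes stay within -0.030 and 0.037.

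Several probe sets read many of the genes. The 43 members had 91 probe sets called present on at least 2 arrays, and 29 members had more than 1. In Sall4b-only against control cells 87 of 91 were higher, and all probe sets of a gene shared their direction for 27 of 29 members, the exceptions being Bub3 and Nusap1. In depleted against control cells 86 of 91 were higher and 26 of 29 members were of 1 direction. In Sall4a-only against control cells 71 of 91 were higher and 16 of 29 were of 1 direction.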

How the data were processed

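The authors deposited linear intensities, a value for each array and probe set, with a present, marginal or absent call beside each in the whole-series table. RMA (background correction, equalised probe distributions, summary over probes) is named, without a version, in the submitters' processing notes. No source used here gives the method of the calls. The 3 deposited tables of intensity differed at 0 values (relative tolerance 1e-06).

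Of 45101 probe sets, 64 were controls. GEO's platform annotation gave 1 symbol for 34945 others, several for 932 and none for 9160. Probe sets present on at least 2 arrays were kept and each gene was read by its brightest, which left 14027 genes. Values were log2-transformed with no pseudocount. Limma 3.58.1 (R 4.3.3) fitted 4 group means to 8 arrays, with 4 residual degrees of freedom (6.20 after moderation) and Benjamini-Hochberg adjustment over all genes at 0.05. The number of arrays limits precision.

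Members, lists and tests were chosen with earlier results of these data known. Differences are given for the 5 members of smallest p in each comparison, 2 of each role against control, and Sall4. Others named were chosen after their values were seen. Alternatives covered the filter, probe set, scaling, variance prior, groups in the fit, replicate block and each array left out.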

Additional observations from a re-analysis of the deposited data

How the results depend on the processing

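No member passed limma's threshold in any of the 6 comparisons under any alternative run, so the count was 0 throughout; with a single array in a group the lone array is assumed to vary like the other groups. The counts of members without overlap (higher and lower together) that moved by over 1.5 times were 3 in Sall4a-only against control (7 as reported) with the mean of all kept probe sets and with arrays centred on their median, 1 and 4 in Sall4a-only against depleted (2 as reported) under the same settings, and 9 in Sall4a-only against Sall4b-only (17 as reported) with arrays centred. With control replicate 2 and Sall4a-only replicate 2 both left out, a choice made after seeing the data, these counts were 35 in depleted against control (78.3% of all genes did not overlap) and 36 in Sall4a-only against depleted (80.4%); in Sall4a-only against control, 1 array against 1, no gene can overlap, so the 43 (100% of all genes) shows nothing. The medians were then 0.16 in Sall4a-only against depleted and -0.058 in Sall4a-only against Sall4b-only.

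With each array left out in turn, the counts without overlap ran from 21 to 41 in depleted, 7 to 36 in Sall4a-only and 36 to 42 in Sall4b-only against control, from 2 to 38 in Sall4a-only and 34 to 41 in Sall4b-only against depleted, and from 17 to 43 in Sall4a-only against Sall4b-only. Over all genes the share without overlap ran, in the same order, from 41.1% to 80.8%, 30% to 68.5%, 51.7% to 84.2%, 35.2% to 80.4%, 56.7% to 80.8% and 34.1% to 81.9%, so overlap became rarer generally with fewer arrays. The medians ran from 0.055 to 0.42, 0.037 to 0.42 and 0.28 to 0.66 against control, from -0.25 to 0.16 and 0.11 to 0.30 against depleted, and from -0.52 to -0.058 between the add-back groups. The cause was not tested.

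Some single members changed sign, and each range is over all arrays left out in turn. In depleted against control cells they ran from -0.0043 to 0.34 for Cdca8, -0.37 to 0.45 for Espl1 and -0.069 to 0.42 for Kif2c, negative without control replicate 2. In Sall4a-only against control cells they ran from -0.052 to 0.29 for Cdca8 and -0.36 to 0.46 for Espl1, lowest without control replicate 2, and from -0.045 to 0.39 for Cdc25c, -0.075 to 0.57 for Ndc80, -0.26 to 0.55 for Nuf2 and -0.077 to 0.43 for Anln, lowest without Sall4a-only replicate 1; Espl1 was also negative there, at -0.16. In Sall4a-only against depleted cells they ran from -0.47 to 0.036 for Anln and -0.63 to 0.18 for Nuf2, highest without Sall4a-only replicate 2. With both arrays left out, Cdca8 (-0.0043), Espl1 (-0.37) and Kif2c (-0.069) against control in depleted cells, Espl1 (-0.15) against control in Sall4a-only cells, and Anln (0.036) and Nuf2 (0.18) against depleted cells had the opposite sign.

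With the replicate number as a replicate block, 0 members passed in each of the 6 comparisons and the medians and counts without overlap were the same; the lowest adjusted p of a member was 0.141, in Sall4b-only against control cells. Same-numbered arrays correlated in their deviations from the group means at 0.568 in control and depleted cells but between -0.116 and 0.196 in the other 5 pairs of groups. The labels do not say what a shared number marks. A crossed block for Sall4b-only against depleted cells, added after seeing the data, called 0 members.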

Other observations

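Damage and G2 checkpoint genes outside the mitotic set went both ways in Sall4b-only against control cells. Atr, a kinase that senses replication stress, had intensities of 1066 and 1016 on the control arrays, 1398 and 1356 on the depleted, 1384 and 1083 on the Sall4a-only and 1794 and 1582 on the Sall4b-only arrays, so both Sall4b-only arrays were above both control arrays. Its log2 difference was 0.69 (SE 0.15, limma adjusted p = 0.174). Gadd45g, a stress-induced growth arrest gene, was at 3390.1 and 4643 on the control arrays, 4372 and 4599 on the depleted, 2203 and 4549.6 on the Sall4a-only and 1906 and 2030.2 on the Sall4b-only arrays, and differed by -1.01 (SE 0.34, limma adjusted p = 0.272). Ccnd2, the cyclin D2 of G1, was at 1278 and 953 on the control arrays, 2822 and 1979 on the depleted, 795 and 5304 on the Sall4a-only and 3754 and 5112 on the Sall4b-only arrays, a 3.97-fold difference in Sall4b-only against control cells (1.99 log2, SE 0.82, limma adjusted p = 0.331). None of the 3 passed.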
